A study of Mus musculus with 12 samples.

Results

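The genes described are 10 that mark a cell's turn towards oxygen-independent glycolysis: Hif1a, Egln3, Slc2a1, Hk1, Hk2, Pfkfb3, Pfkfb4, Pdk1, Slc16a3 and Vegfa. They were chosen by symbol, and each was represented by the probe set that carries its symbol alone and has the highest mean over the 12 arrays. All 10 were measured, out of 19938 genes with such a probe set. Each of 9 members had 1 probe set of this kind, and Hk1 had 2.

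The arrays measured RNA from spleens of C57BL/6 mice in 3 labelled groups of 4 biological replicates. Mice of the groups labelled septic underwent colon ascendens stent peritonitis (CASP), surgery that places a stent through the colon so that bowel contents seep into the abdomen. They were either wildtype or deficient in signalling by Toll-like receptors (TLRs), the sensors of microbial molecules, with the word Trifxmyd in the titles of the deficient group. The last group was wildtype and untreated, with 0h (once Oh) in its titles. No group was TLR-deficient and untreated, and the labels give neither the alleles nor the age, the sex or the time from operation to sampling. The replicates are called biological in the labels. The titles also carry running numbers: M5 to M8 are septic TLR-deficient replicates 1 to 4, M9 to M12 septic wildtype replicates 1 to 4, and M13 to M16 untreated replicates 1 to 4.

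Hif1a encodes the oxygen-regulated subunit of the transcription factor HIF-1. When oxygen is plentiful, prolyl hydroxylases such as Egln3 mark the subunit for destruction, and when oxygen is short it builds up and switches on genes for glucose uptake, glycolysis, lactate export and blood vessel growth. Inflammatory signals also raise HIF-1 in macrophages and neutrophils, and a shift to glycolysis accompanies their activation by microbial products. The mRNA level of Hif1a is only one of the steps that set the amount of HIF-1 protein.

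Septic wildtype replicate 2 stood apart from the rest. It correlated with the other arrays at Pearson's r of 0.765 to 0.809 across genes, which are not independent replicates, against 0.956 to 0.991 among the other 11. Its log2 values were also less spread, with an SD of 1.52 where the other arrays had 2.11 to 2.24. The labels also did not describe which arrays were alike: 5 of 12 arrays correlated best with an array of their own group. M16 (labelled untreated) was closest to M5 (septic TLR-deficient), M8 (septic TLR-deficient) to M9 (septic wildtype), and M12 (septic wildtype) to M13 (untreated). Whether the labels of M8, M12 and M16 are right could not be settled from the values, and no array was moved to another group. If any of the 3 is mislabelled, the labelled means, SDs and differences do not describe the conditions they name. Each member is therefore given on every array, by label and by 3 sets of titles that came from earlier results of these data: M5 to M7 with M16, M8 to M11, and M12 to M15. These sets mix labels, so their values are described without a mean or a test.

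HIF-1 binds DNA at a short core, ACGTG or GCGTG, read on either strand. Within the 250 bases before the first listed start, 8 of the 10 members held at least 1 such core, and Hk1 and Vegfa held none. The core occurred in 38.6% of 27025 windows of the same length, those of all genes with a window. The core contains a CG pair, and the members' windows had a GC content of 49.6% to 73.6% against a median of 52.0% over all windows. The stretches are printed here for the core, which the factor encoded by Hif1a is known to read. Whether it reads any of these stretches was not tested. They are 30-base stretches of mouse build GRCm38.p6 from RefSeq, 5′ to 3′ on the gene's strand, with the core in capitals, as CACGT or CACGC where it lies on the other strand. The first Hif1a stretch holds a core on each strand, overlapping as CACGTG.
Hif1a, chr12:73907720-73907749, plus strand: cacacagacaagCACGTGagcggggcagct
Hif1a, chr12:73907785-73907814, plus strand: tggctgagagcaACGTGggctggggtgggg
Pfkfb3, chr2:11553972-11554001, minus strand: ctccgcgccgtgACGTGccaagctgtgacc
Slc16a3, chr11:120949034-120949063, plus strand: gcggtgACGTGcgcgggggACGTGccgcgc
Slc2a1, chr4:119108684-119108713, plus strand: CACGCctctcagagtcccgccccggACGTG
Hk2, chr6:82774663-82774692, minus strand: agccacggaacaCACGTcccaactctggcg
Hk2, chr6:82774489-82774518, minus strand: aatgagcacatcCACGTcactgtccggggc
Pfkfb4, chr9:108991773-108991802, plus strand: ttgacggatgggGCGTGcttagtccaaaag
Pdk1, chr2:71873134-71873163, plus strand: ccgcctacatggGCGTGtctttaaccaggg
Egln3, chr12:54204086-54204115, minus strand: tgtgcatctcagACGTGagatccaggtttt
These letters are a description of the windows. No binding was measured, and the absence of a core in the windows of Hk1 and Vegfa says nothing about sites elsewhere. Hk1 and Vegfa each have 2 listed starts, and only the window of the first was searched.

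Between the labelled groups no member passed the test. In the comparison of septic with untreated wildtype arrays, limma called 0 of 10 members at an adjusted p under 0.05, and 0.0% of all genes. With the test unadjusted, 4 members (Hif1a, Slc2a1, Pfkfb3 and Hk2) and 1756 of 19938 genes were at p under 0.05, all 4 members with lower means on the septic arrays. Without septic wildtype replicate 2, or without untreated replicate 4, the member count was 0, with 1086 and 858 genes. It was 1, with 793 genes, when untreated replicate 3 was left out, and 2, with 3038 genes, for septic wildtype replicate 3. Septic TLR-deficient against septic wildtype likewise gave 0 members called by limma and 0.0% of genes called, with 2 members (Hif1a and Pfkfb3) and 1325 genes at an unadjusted p under 0.05. Leaving out 1 array at a time gave 1 to 4 members, and 606 to 2201 genes. Without septic TLR-deficient replicate 4 there were 4 members and 1654 genes, and without septic TLR-deficient replicate 1 there were 1 and 606. Between septic TLR-deficient and untreated arrays limma called 0 members and 0.0% of genes, with 0 members and 375 genes at an unadjusted p under 0.05. These comparisons share arrays: septic wildtype replicate 2 enters both of the first, and untreated replicate 4 the first and the last. The median difference over the 10 members was -0.48 for septic against untreated wildtype (0.07 over all genes), 0.33 for septic TLR-deficient against septic wildtype (-0.06 over all genes), and 0.00 for septic TLR-deficient against untreated (0.01 over all genes). The first was -0.30 without untreated replicate 4, and the second 0.18 without septic TLR-deficient replicate 1 and 0.50 without septic TLR-deficient replicate 3. In whole spleen, a lower value from fewer cells of a type and one from less RNA per cell cannot be told apart.

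**Figure D1:**
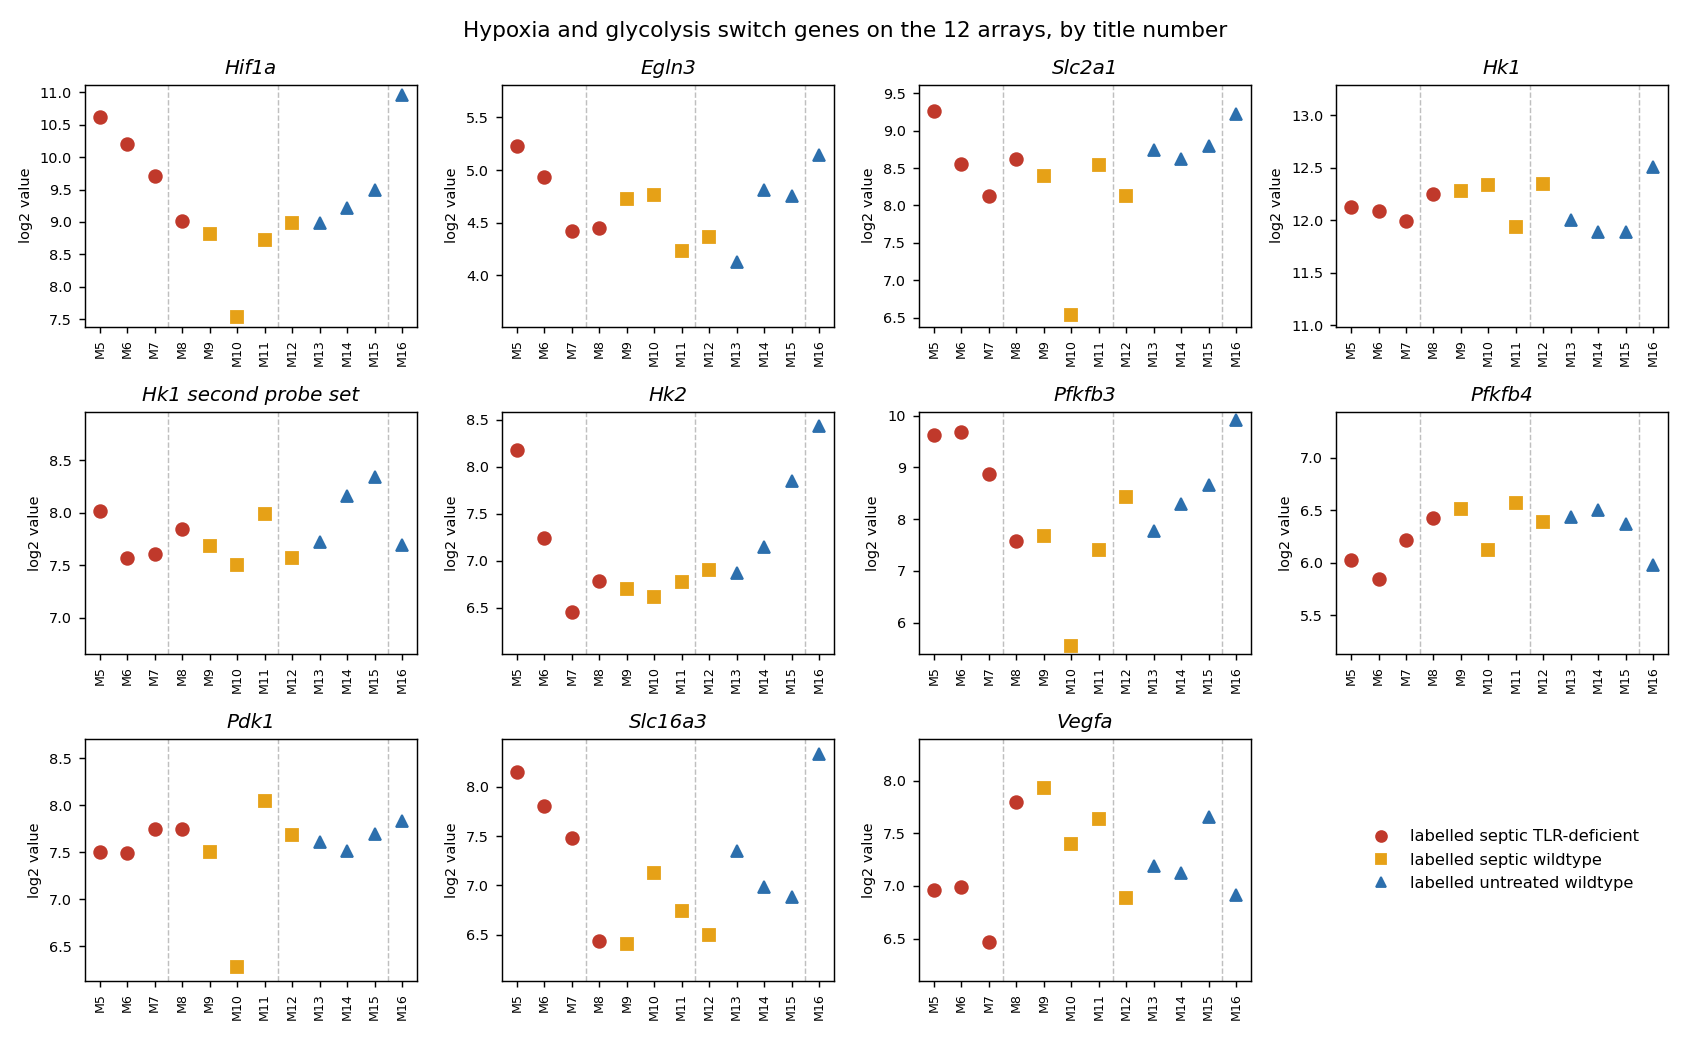
Log2 value of each member (and of the second Hk1 probe set) on the 12 arrays, which are ordered by title number along the horizontal axis, with marker and colour for the labelled group and dashed lines between the title sets; vertical axes differ between panels and do not start at 0. Hif1a, Pfkfb3 and Slc16a3 lie higher on M5 to M7 and M16 than on all the other 8 arrays, and Hif1a, Pfkfb3, Slc2a1 and Pdk1 are lowest on M10, which is septic wildtype replicate 2.

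Hif1a had log2 values of 10.61, 10.20, 9.71 and 9.01 on septic TLR-deficient replicates 1 to 4. On septic wildtype replicates 1 to 4 it stood at 8.81, 7.54, 8.72 and 8.98, and on untreated replicates 1 to 4 at 8.99, 9.22, 9.50 and 10.96. Untreated replicate 4 was the highest of all arrays, and both other groups lay wholly above the septic wildtype group. The margin was thin: the lowest untreated array was at 8.99 and the highest septic wildtype array at 8.98. The mean was 9.88 ± 0.69 (SD, n = 4) on septic TLR-deficient, 8.51 ± 0.66 (SD, n = 4) on septic wildtype and 9.67 ± 0.89 (SD, n = 4) on untreated arrays. Septic wildtype was lower than untreated by a log2 difference of -1.16 (SE 0.46), with adjusted p = 0.439 in limma, and this was -0.72 without untreated replicate 4. Septic TLR-deficient exceeded septic wildtype by 1.37 (SE 0.46, adjusted p = 0.59 in limma). By title set the gene ran from 9.71 to 10.96 on M5 to M7 with M16, from 7.54 to 9.01 on M8 to M11, and from 8.98 to 9.50 on M12 to M15. The set with the highest values thus holds 3 arrays labelled septic and 1 labelled untreated.

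Egln3, a prolyl hydroxylase that marks HIF subunits for destruction and is itself a target of HIF-1, varied less than Hif1a. Its mean of 4.66 was the lowest of the members, at the 32.5th percentile of gene means. The part of background signal in such low values was not tested. Its range over the 11 arrays other than septic wildtype replicate 2 was still wider than in 77.7% of genes. Its log2 values were 5.23, 4.93, 4.42 and 4.45 on septic TLR-deficient arrays, 4.72, 4.76, 4.23 and 4.36 on septic wildtype arrays, and 4.12, 4.81, 4.75 and 5.14 on untreated arrays. The 3 groups overlapped, as did the 3 title sets, although the 3 highest values fell on M5, M16 and M6. Septic wildtype differed from untreated by -0.19 (SE 0.26, adjusted p = 0.628 in limma). That value was -0.38 without untreated replicate 1, -0.09 without septic wildtype replicate 3 and -0.04 without untreated replicate 4.

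Slc2a1 encodes GLUT1, the glucose transporter of the plasma membrane of most cells. Its log2 values were 9.26, 8.56, 8.12 and 8.62 on septic TLR-deficient arrays and 8.40, 6.53, 8.54 and 8.13 on septic wildtype arrays. Untreated arrays gave 8.74, 8.62, 8.80 and 9.23, all above the septic wildtype arrays by a narrow margin. The value on septic wildtype replicate 2 lay far below the other 11. The difference between septic and untreated wildtype was -0.94 (SE 0.39, adjusted p = 0.439 in limma), and -0.49 without that array. Septic TLR-deficient exceeded septic wildtype by 0.74 (SE 0.39, adjusted p = 0.59 in limma), and by 0.28 without it. Hif1a and Slc2a1 were the 2 members whose septic and untreated wildtype groups did not overlap, both lower on septic arrays, where 6.42% of all genes had groups without overlap in either direction. Hif1a was the 1 member without overlap between septic TLR-deficient and septic wildtype, against 3.8% of all genes. No member (0 of 10) separated septic TLR-deficient from untreated arrays, against 3.4% of all genes.

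Hexokinases trap glucose in the cell by phosphorylating it. Hk2, the isoform that activated cells switch on, had log2 values of 8.18, 7.24, 6.45 and 6.78 on septic TLR-deficient arrays. Septic wildtype arrays lay close together at 6.70, 6.61, 6.77 and 6.90, and untreated arrays at 6.87, 7.15, 7.85 and 8.43. The highest values came from M16, M5 and M15, so they follow neither the labels nor the title sets, and septic TLR-deficient replicate 3 held the lowest value of all. Septic wildtype differed from untreated by -0.83 (SE 0.38, adjusted p = 0.439 in limma), and by -0.55 without untreated replicate 4. The difference between septic TLR-deficient and septic wildtype was 0.42 (SE 0.38, adjusted p = 0.607 in limma), and it was 0.08 without septic TLR-deficient replicate 1 and 0.65 without septic TLR-deficient replicate 3.

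Hk1 is the hexokinase found in most tissues, and its 2 probe sets did not tell the same story. The brighter one, which stands for the gene by the rule, had log2 values of 12.13, 12.09, 11.99 and 12.25 on septic TLR-deficient, 12.28, 12.34, 11.94 and 12.35 on septic wildtype arrays, and from 11.89 to 12.51 on untreated arrays, with untreated replicate 4 the highest. The second had 8.02, 7.57, 7.61 and 7.85 on septic TLR-deficient, 7.68, 7.50, 7.99 and 7.57 on septic wildtype, and 7.72, 8.16, 8.34 and 7.69 on untreated arrays. The groups overlapped on both probe sets. Septic minus untreated wildtype was 0.16 (SE 0.18, adjusted p = 0.588 in limma) on the brighter and -0.29 (SE 0.20, adjusted p = 0.44 in limma) on the second, and the sign differed between them in the other 2 comparisons as well. The value on the brighter probe set was 0.09 without untreated replicate 2 or 3, 0.25 without septic wildtype replicate 3 and 0.30 without untreated replicate 4. The platform annotation cites 1 transcript accession for the brighter probe set and 8 for the second. That 1 accession is shared by 18 probe sets, of which 16 also name Rpl17, a ribosomal protein, and those 16 lay between 10.44 and 12.71 over the arrays. What the brighter probe set detects was not tested, and values given for Hk1 are uncertain to that extent.

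Pfkfb3 and Pfkfb4 make and degrade fructose 2,6-bisphosphate, the strongest activator of the committed step of glycolysis, and Pfkfb3 favours its making. Pfkfb3 had the widest range of the members over the 11 arrays other than septic wildtype replicate 2, at 2.52 log2 units, wider than in 98.1% of genes. Its log2 values were 9.62, 9.69, 8.87 and 7.57 on septic TLR-deficient, 7.67, 5.55, 7.40 and 8.43 on septic wildtype, and 7.78, 8.29, 8.66 and 9.92 on untreated arrays. The labelled groups overlapped, with septic TLR-deficient replicate 4 among the low arrays and untreated replicate 4 the highest. Mean values were 8.94 ± 0.98 (SD, n = 4) on septic TLR-deficient, 7.26 ± 1.22 (SD, n = 4) on septic wildtype and 8.66 ± 0.91 (SD, n = 4) on untreated arrays. Septic TLR-deficient exceeded septic wildtype by 1.68 (SE 0.63, adjusted p = 0.59 in limma), or by 1.11 without septic wildtype replicate 2. Septic minus untreated wildtype was -1.40 (SE 0.63, adjusted p = 0.439 in limma), or -0.83 without that array. The title sets did not overlap: Pfkfb3 ran from 8.87 to 9.92 on M5 to M7 with M16, from 7.78 to 8.66 on M12 to M15, and from 5.55 to 7.67 on M8 to M11. Those sets were proposed with these data in view, and the share of all genes that separate in this way was not counted.

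Pfkfb4 was low on the arrays where Pfkfb3 was highest, within narrow bounds. It had log2 values of 6.03, 5.85, 6.22 and 6.43 on septic TLR-deficient, 6.51, 6.12, 6.57 and 6.39 on septic wildtype, and 6.44, 6.50, 6.37 and 5.98 on untreated arrays. M5 to M7 with M16 held values from 5.85 to 6.22, below every other array except septic wildtype replicate 2 at 6.12. Septic TLR-deficient differed from septic wildtype by -0.27 (SE 0.19, adjusted p = 0.59 in limma), or by -0.17 without septic TLR-deficient replicate 2. Septic differed from untreated wildtype by 0.07 (SE 0.19, adjusted p = 0.816 in limma), with values from -0.04 to 0.16 when 1 array was left out and a negative sign without untreated replicate 4.

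Pdk1 encodes a kinase that shuts the pyruvate dehydrogenase complex and so keeps pyruvate out of the mitochondrial cycle. It was the steadiest member, with a range of 0.56 log2 units over 11 arrays. Single arrays stood at 7.50, 7.49, 7.75 and 7.75 on septic TLR-deficient, 7.50, 6.28, 8.05 and 7.68 on septic wildtype, and 7.61, 7.51, 7.69 and 7.83 on untreated arrays. Septic wildtype replicate 2 was again far below the rest. Septic minus untreated wildtype was -0.28 (SE 0.30, adjusted p = 0.549 in limma) with that array and 0.08 without it, so 1 array set the sign, and it was -0.51 without septic wildtype replicate 3.

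Slc16a3 encodes MCT4, the carrier through which glycolytic cells export lactate. On septic TLR-deficient arrays its log2 values were 8.15, 7.80, 7.48 and 6.44, on septic wildtype arrays 6.41, 7.13, 6.74 and 6.50, and on untreated arrays 7.35, 6.98, 6.88 and 8.33. Untreated replicate 4 and septic TLR-deficient replicates 1 to 3 were the 4 highest, and septic TLR-deficient replicate 4 lay beside septic wildtype replicates 1 and 4. Here septic wildtype replicate 2 was not the lowest but the highest of its group. Mean values were 7.47 ± 0.74 (SD, n = 4) on septic TLR-deficient, 6.70 ± 0.32 (SD, n = 4) on septic wildtype and 7.38 ± 0.66 (SD, n = 4) on untreated arrays. Septic TLR-deficient exceeded septic wildtype by 0.77 (SE 0.38, adjusted p = 0.59 in limma). Septic differed from untreated wildtype by -0.69 (SE 0.38, adjusted p = 0.439 in limma), and by -0.37 without untreated replicate 4.

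Vegfa, the growth factor that draws blood vessels into oxygen-poor tissue, did not follow Hif1a. Its log2 values were 6.96, 6.99, 6.47 and 7.80 on septic TLR-deficient, 7.93, 7.40, 7.64 and 6.89 on septic wildtype, and 7.19, 7.12, 7.66 and 6.91 on untreated arrays. All 4 arrays titled M8 to M11 lay between 7.40 and 7.93, on arrays where Hif1a was low, and M5 to M7 with M16 lay between 6.47 and 6.99. Septic wildtype replicate 4 and untreated replicates 1 to 3 spanned 6.89 to 7.66 and overlapped both sets. Septic TLR-deficient differed from septic wildtype by -0.41 (SE 0.29, adjusted p = 0.59 in limma), a value that 3 arrays moved by over 1.5 times: it was -0.22 without septic TLR-deficient replicate 3, -0.26 without septic wildtype replicate 1 and -0.66 without septic TLR-deficient replicate 4.

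**Figure D2:**
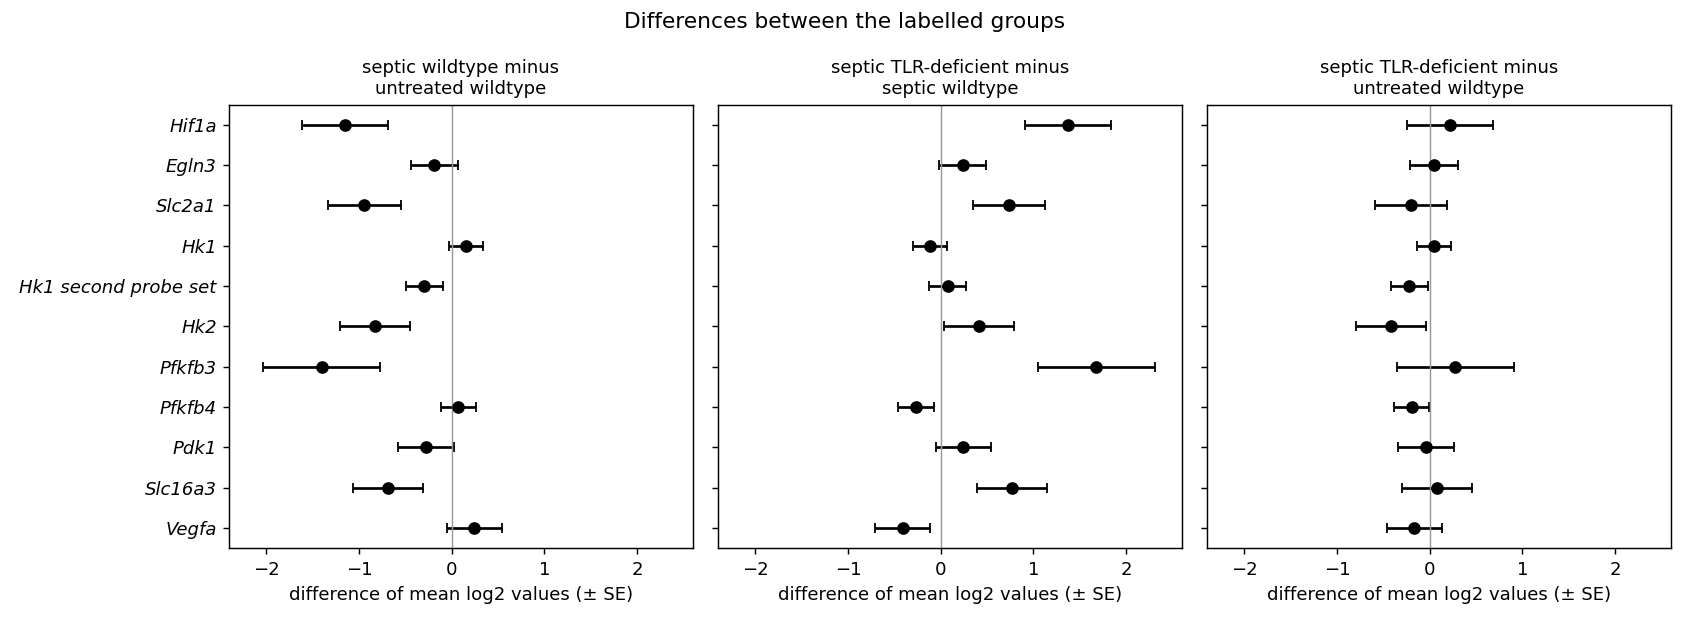
Difference of mean log2 values for each member in the 3 labelled comparisons, with points for the difference and bars for its SE in limma (4 arrays per group), and a grey line at no difference. The widest differences are those of Pfkfb3 and Hif1a, at -1.40 and -1.16 for septic minus untreated wildtype and 1.68 and 1.37 for septic TLR-deficient minus septic wildtype, and no difference had an adjusted p under 0.05.

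Ordered by their range over the 11 arrays other than septic wildtype replicate 2, the members fell into a variable and a steady part. Pfkfb3, Hif1a (2.24 log2 units), Hk2 (1.98) and Slc16a3 (1.92) each varied more than at least 95.3% of all genes did. Vegfa followed at 1.46, Slc2a1 at 1.15 and Egln3 at 1.11. Pfkfb4 (0.72), the brighter Hk1 probe set (0.63) and Pdk1 (0.56) varied less than the median gene. Untreated replicate 4 was the highest array for 5 members (Hif1a, Pfkfb3, Hk1, Hk2 and Slc16a3), and septic wildtype replicate 2 the lowest for 4 (Hif1a, Pfkfb3, Slc2a1 and Pdk1). The shares of all genes highest or lowest on these arrays were not counted, so the counts do not mark the members out. Septic wildtype replicate 2 also had less spread values, with an SD of 1.52 against 2.11 to 2.24 on the other arrays.

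On the 4 arrays titled M5 to M7 and M16, 3 of the 10 members (Hif1a, Pfkfb3 and Slc16a3) lay above all the other 8 arrays, as did 1.72% of all genes. No member (0 of 10) lay below them all, as 1.85% of genes did. Without septic wildtype replicate 2 the count above stayed at 3, against 2.18% of genes, and 1 member, Pfkfb4, lay below the other 7, against 5.07% of genes. The title sets were proposed with these data in view, so the counts are a description.

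Other genes of the same pathways were read from lists. Of 143 genes listed outside the members, 133 were measured, and limma called 0 of them in each of the 3 comparisons. Septic wildtype means were below untreated means for 106 and above for 27, with a median difference of -0.31, and 22 were at an unadjusted p under 0.05. That is 20.3% with higher septic means, against 55.1% of all genes. Without septic wildtype replicate 2, which enters both of the first comparisons, 91 were below and 42 above, the median was -0.15 and 13 were at an unadjusted p under 0.05. The share with higher septic means was then 31.6%, against 55.3% of all genes. Between septic TLR-deficient and septic wildtype, 99 were higher (74.4%, against 43.9% of all genes) and 34 lower, with a median of 0.22 and 17 at an unadjusted p under 0.05. Without septic wildtype replicate 2 these were 80 (60.2%, against 48.0% of all genes) and 53, with a median of 0.06 and 8 at an unadjusted p under 0.05. Without septic TLR-deficient replicate 1 the median was 0.14. Septic TLR-deficient minus untreated gave 44 higher (33.1%, against 51.9% of all genes) and 89 lower, a median of -0.08 and 5 at an unadjusted p under 0.05. The shares of all genes given here also stand beside the counts of the separate lists below. They are not matched to the lists by mean value. On M5 to M7 with M16, 4 of the 133 (3.01%) lay above all the other 8 arrays and 1 (0.752%) below.

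Genes that HIF-1 is known to switch on outside glycolysis included 3 of those 4. Edn1, which encodes the vessel-constricting peptide endothelin-1, lay between 7.08 and 8.59 on M5 to M7 with M16 and between 5.04 and 5.67 on the other 8 arrays. Hilpda, which blocks the breakdown of lipid droplets, lay between 7.22 and 8.35 against 5.28 to 6.67. Ndrg1, a stress-responsive gene picked out after its values were seen, lay between 8.67 and 9.40 against 7.04 to 8.60. In the same way Ppp1r3c, a glycogen-targeting subunit of protein phosphatase 1 also picked out after its values were seen, lay between 3.97 and 4.13 against 4.31 to 5.02, the 1 gene in the opposite direction. Lox, an enzyme that crosslinks collagen, spanned 4.41 log2 units over 11 arrays: it stood at 8.99, 7.83, 6.87 and 4.86 on septic TLR-deficient, 4.58, 5.82, 5.08 and 5.63 on septic wildtype and 7.88, 5.88, 6.59 and 8.68 on untreated arrays. Untreated replicate 1 thus joined the high arrays for Lox, which it did not for Hif1a. Of the 33 measured genes of this list, 27 had lower means on septic than on untreated wildtype arrays (median -0.45), and 25 had higher means on septic TLR-deficient than on septic wildtype arrays (median 0.45), with 0 called by limma and 6 and 9 at an unadjusted p under 0.05. Without septic wildtype replicate 2 the medians were -0.25 and 0.18, with 24 lower and 23 higher, and without untreated replicate 4 the first was -0.22.

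Among the regulators of HIF, Egln2, a second prolyl hydroxylase, was the fourth gene above on M5 to M7 with M16, at 8.89 to 9.72 against 7.69 to 8.75. Epas1, which encodes the HIF-2 subunit, was at 8.04, 8.02, 7.82 and 7.05 on septic TLR-deficient, 7.76, 6.17, 7.85 and 7.56 on septic wildtype and 8.16, 8.20, 8.34 and 8.44 on untreated arrays. Untreated arrays were therefore all above both septic groups for Epas1, unlike for Hif1a, and septic minus untreated wildtype was -0.95 (adjusted p = 0.439 in limma). The chaperone gene Hsp90aa1, whose protein stabilises the HIF-1 subunit, overlapped between groups, with its lowest value of 9.24 on septic wildtype replicate 2. Over the 20 measured regulators the median was -0.52 for septic against untreated wildtype (17 lower, 3 higher) and 0.31 for septic TLR-deficient against septic wildtype (18 higher, 2 lower), with 0 called by limma and 4 and 2 at an unadjusted p under 0.05. Septic wildtype replicate 2 averaged 6.65 over this list, and without it the medians were -0.20 (16 lower) and 0.05 (14 higher), with 1 and 0 at an unadjusted p under 0.05.

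Among pyruvate dehydrogenase and its regulators other than Pdk1, the widest range over 11 arrays, 3.51 log2 units, was that of Pdk4, a kinase of the complex that fasting and glucocorticoids induce. It had log2 values of 7.97, 7.82, 8.21 and 5.17 on septic TLR-deficient, 5.08, 4.60, 6.20 and 6.50 on septic wildtype and 8.35, 6.29, 6.10 and 8.59 on untreated arrays. Its high arrays were M5 to M7, M13 and M16, and M8 to M10 were low, so the gene separated neither the labelled groups nor the title sets. Septic TLR-deficient minus septic wildtype was 1.70 (adjusted p = 0.59 in limma), while that of Pdk1 was 0.24 (adjusted p = 0.677 in limma). Pdk3 was low on septic wildtype replicate 2, at 4.38 against 7.44 to 8.67 on the other 11 arrays, and Pdk2 ranged from 5.11 to 6.33. All 12 measured genes of this list had lower means on septic than on untreated wildtype arrays (median -0.40), and 10 had higher means on septic TLR-deficient than on septic wildtype arrays (median 0.27), with 0 called by limma and 2 and 4 at an unadjusted p under 0.05. Of all genes, 55.1% and 43.9% had higher means in the first group of the same comparisons. Septic wildtype replicate 2 averaged 6.15 over this list, and without it the medians were -0.21 (11 lower) and 0.14 (8 higher), with 1 and 1 at an unadjusted p under 0.05.

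Glycolytic enzymes as a list had small differences. Over the 17 measured, the median difference was -0.26 for septic against untreated wildtype (11 lower, 6 higher) and 0.22 for septic TLR-deficient against septic wildtype (14 higher, 3 lower), with 0 called by limma and 3 and 1 at an unadjusted p under 0.05. The second median was 0.05 on leaving out septic TLR-deficient replicate 1, 0.12 without its replicate 4 and 0.14 without septic wildtype replicate 4. The widest ranges belonged to Bpgm and Pklr, isoforms that red blood cells use, which were highest on septic TLR-deficient replicate 4 at 10.09 and 7.69. Bpgm was lowest on untreated replicates 1 and 4, at 7.46 and 7.67. Pfkl, a subunit of phosphofructokinase, ranged from 5.56 on septic wildtype replicate 2 to 8.36 on septic TLR-deficient replicate 1.

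The sugar and lactate carriers other than the members showed no common direction, with medians of -0.04 and -0.10 over 13 genes in the same pair of comparisons, 0 called by limma, and 1 and 0 at an unadjusted p under 0.05. With 1 array left out each median took either sign: the first was 0.05, 0.07 and 0.05 without septic wildtype replicate 2, untreated replicate 2 and untreated replicate 3, and the second 0.08 without septic wildtype replicate 3. Slc16a7, the lactate and pyruvate carrier MCT2, was at 5.09, 5.40, 4.54 and 6.98 on septic TLR-deficient, 6.38, 5.40, 6.40 and 5.87 on septic wildtype and 6.23, 6.23, 5.89 and 4.55 on untreated arrays. Its low arrays were M5 to M7, M10 and M16, all but M10 among the highest for Slc16a3. Slc2a4, the insulin-responsive GLUT4, was highest on septic TLR-deficient replicates 3 and 2 at 6.63 and 6.19, and Slc2a6, a further transporter of the family, ranged from 5.81 on septic wildtype replicate 2 to 7.84 on untreated replicate 3.

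A further list joined Pfkfb2, Tigar, Fbp1 and Fbp2 with genes of the pentose phosphate branch, which draws sugar away from glycolysis. Within it the pentose phosphate genes Pgd, Rpia and Tkt varied most. Pgd was at 5.79 on septic wildtype replicate 2 and between 8.59 and 9.73 on the other arrays. Over the 10 measured genes the medians were -0.20 and 0.13, with 0 called by limma and 2 and 0 at an unadjusted p under 0.05. They were -0.01 and -0.03 without septic wildtype replicate 2, and -0.31 and 0.24 without septic wildtype replicate 3.

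The list for the mitochondrial cycle included the widest range of any pathway gene. It also held genes that act outside the cycle, such as Idh1 and Acly. Acod1, which diverts the cycle's aconitate into itaconate in activated macrophages, spanned 5.68 log2 units, at 10.03, 8.77, 6.60 and 4.36 on septic TLR-deficient, 4.75, 5.33, 4.48 and 7.12 on septic wildtype and 6.09, 7.77, 8.0 and 8.30 on untreated arrays. M8 to M11 were the 4 lowest. The isocitrate dehydrogenases Idh1 and Idh2 were highest on those same arrays apart from septic wildtype replicate 2, with Idh1 at 9.05, 8.65 and 9.01 on M8, M9 and M11. Over the 19 measured genes the medians were -0.30 and 0.20, with 0 called by limma and 1 and 1 at an unadjusted p under 0.05. Septic wildtype replicate 2 averaged 7.35 over this list, and without it the medians were -0.05 and 0.03. They were -0.46 and 0.42 without septic wildtype replicate 3, and -0.45 and 0.36 without septic wildtype replicate 1.

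Around Vegfa, the other ligands and the receptors of the family had lower means on septic than on untreated wildtype arrays for 9 of 9 genes (median -0.32), with 0 called by limma and 3 at an unadjusted p under 0.05. Leaving out septic wildtype replicate 2 made this 8 of 9, with a median of -0.18. Septic TLR-deficient means were also below untreated means for 9 of 9 genes (median -0.42, 0 called by limma, 2 at an unadjusted p under 0.05). Against septic wildtype, 5 were higher and 4 lower on septic TLR-deficient arrays (median 0.06). That median ran from -0.05 to 0.11 with 1 array left out. Kdr, the main signalling receptor for Vegfa on endothelium, was at 6.71, 5.32, 5.81 and 7.62 on septic TLR-deficient, 7.68, 5.35, 7.44 and 6.62 on septic wildtype and 6.90, 7.30, 7.67 and 6.60 on untreated arrays. It was high with Vegfa on M8, M9, M11 and M15 but not on M10. The co-receptor Nrp1 was lowest on septic TLR-deficient replicates 2 and 3, at 5.81 and 6.26. Flt4, the receptor of lymphatic vessels, was low on M8 and M9, at 5.52 and 5.72, where Vegfa was highest.

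**Figure D3:**
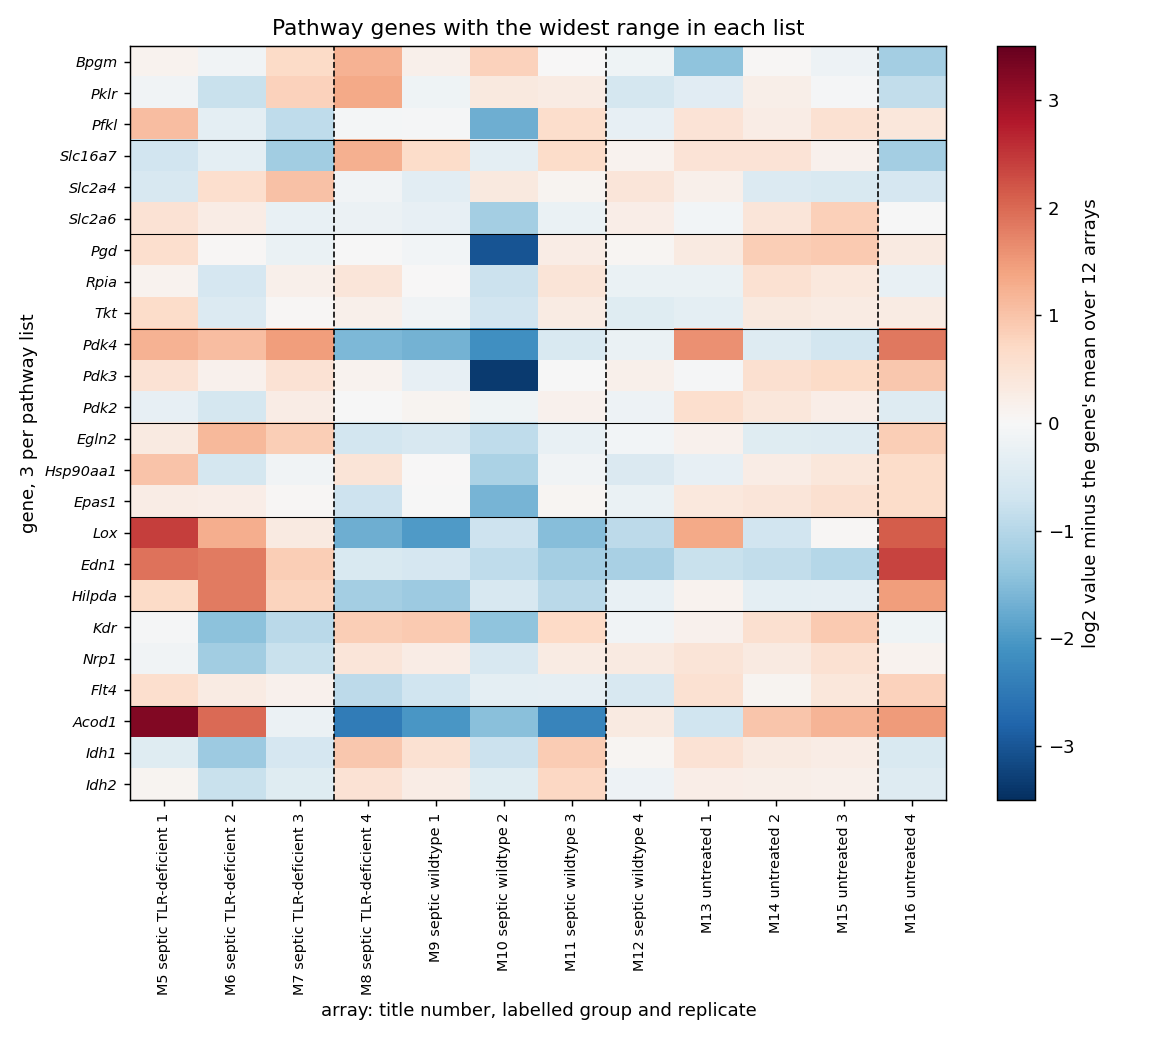
Log2 value relative to each gene's average on all 12 arrays (colour, in log2 units) for the 3 genes with the widest range in each of 8 pathway lists, in rows separated by lines, over arrays ordered by title number, in columns with dashed lines between the title sets. Edn1, Hilpda and Egln2 are above their means on M5 to M7 and M16, Acod1 is lowest on M8 to M11, and Pgd and Pdk3 are lowest on M10 (septic wildtype replicate 2).

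Markers of splenic cell types also differed among these arrays. Of all genes, 1.72% lay above all the other 8 arrays on M5 to M7 with M16 and 1.85% below. The marker counts here and below stand beside those shares, and single markers do not mark a list out. The 9 measured B cell markers averaged 8.09 to 8.36 on M5 to M7 with M16, where Hif1a, Pfkfb3 and Slc16a3 were highest. They averaged 8.05 on septic wildtype replicate 2 and 9.43 to 10.07 on the other 7 arrays. Cd79b and Fcer2a, 2 of the 9, lay below all the other 8 arrays on M5 to M7 with M16, with Fcer2a at 4.99 to 5.38 against 7.63 to 9.88. The 7 T cell markers averaged 7.24 to 7.54 on those 4 arrays, 7.19 on septic wildtype replicate 2 and 7.74 to 8.64 on the rest, and Cd8a was the 1 of 7 below all 8. One of 7 natural killer cell markers, Klrd1, was below as well, and the list averaged 5.62 to 5.94 against 5.71 to 7.27 on the other 8.

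Myeloid markers had no common direction. The 13 neutrophil markers averaged 5.88 to 7.41 on M5 to M7 with M16, 6.42 to 6.98 on M8 to M11 and 7.07 to 8.09 on M12 to M15, with 1 of 13, Cxcr2, below all 8. The 11 monocyte and macrophage markers averaged 8.36 to 8.75, 7.12 to 8.73 and 8.37 to 8.82 on the same sets. Within that list Cd14 (9.65 to 11.26 against 5.71 to 8.41) and Marco (10.46 to 11.65 against 8.37 to 9.39), surface receptors for bacterial products, lay above all 8, and Ccr2 and Cd163 lay below. The 7 erythroid markers averaged 7.13 to 9.23 on M5 to M7 with M16, with their lowest values of 6.95 and 7.13 on M9 and M16, which are septic wildtype 1 and untreated 4. Pancreatic acinar markers, which should be absent from spleen, averaged 9.96 on M14, 9.07 on M12 and 7.17 on M16, against 4.73 to 6.01 on the other 9 arrays.

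Of the remaining lists, 2 of 7 plasma cell markers (Sdc1 and Prdm1), 1 of 7 endothelial (Cdh5) and 1 of 7 adipocyte and mesothelial markers (Fabp4) lay above all 8 on M5 to M7 with M16, and 1 of 5 platelet markers (Ppbp) lay below. None of 8 stromal, 7 erythroid or 6 acinar markers did either. The shares of all genes were 1.72% above and 1.85% below. The list averages were 7.32 to 7.79 on those 4 arrays against 7.06 to 7.72 on the other 8 for plasma cells, 6.54 to 7.20 against 5.81 to 7.34 for endothelium, and 7.31 to 7.87 against 6.53 to 8.06 for stroma. For platelets they were 7.43 to 7.95 against 7.30 to 8.16, and for adipocytes and mesothelium 4.94 to 5.49 against 4.66 to 5.65. Of genes that spleen cells express, Cd79a of B cells was at 7.78 to 11.12 over the 12 arrays and Vcam1 of red pulp macrophages at 8.97 to 11.58. No criterion was set for these values, so they do not verify the labelled tissue. RMA values have no true 0, so no marker is given as absent. The part that cell composition has in the values of Hif1a, Pfkfb3 and Slc16a3 was not tested.

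**Figure D4:**
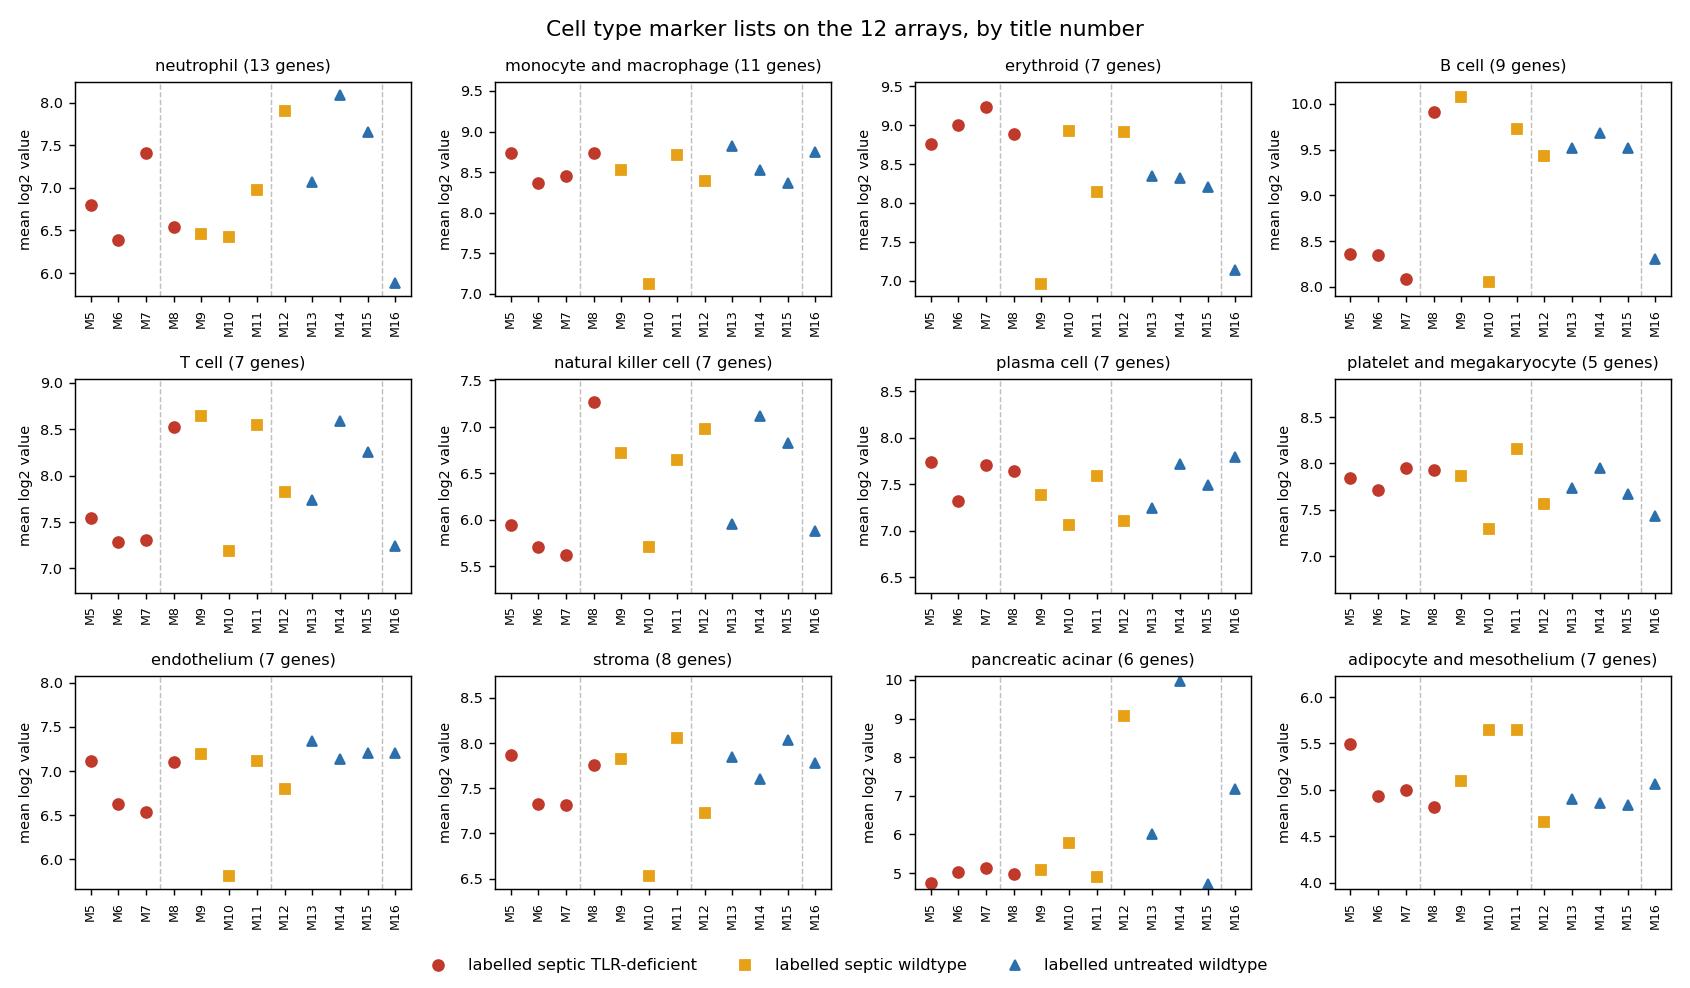
Mean log2 value of each cell type marker list on the 12 arrays, ordered by title number, with marker and colour for the labelled group and dashed lines between the title sets; vertical axes differ and do not start at 0. B cell and T cell means are low on M5 to M7, M10 and M16, and acinar means are high on M12, M14 and M16.

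Genes whose array pattern was most like that of a member were sought among 5627 genes with a range of at least 1 log2 unit over the 11 arrays other than septic wildtype replicate 2. The arrays share labels, title sets and normalization, so the coefficients are a description. Hif1a was most like Sod2, the mitochondrial superoxide dismutase, with Pearson's r of 0.988 over 11 arrays and 0.992 over 12. Ptgs2 (r of 0.977 over 11, 0.835 over 12), the inducible cyclooxygenase, and Rapgef2 (0.976 and 0.984) came next. Pfkfb3 was most like Cd274 (0.984 and 0.946), the checkpoint ligand PD-L1, then Ccl3 (0.980 and 0.856), a chemokine, and Mapk6 (0.978 and 0.969). Slc16a3 was most like Plk2 (0.979 and 0.921), Niban2 (0.975 and 0.949) and Inhbb (0.975 and 0.972), the last a subunit of activin. Each of these 3 members thus had neighbours at r of 0.975 or more over 11 arrays, and with septic wildtype replicate 2 the coefficient of Ptgs2 and that of Ccl3 were lower by over 0.1.

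The other members had looser or different neighbours. Pfkfb4 came closest to Pafah1b3 (0.981 over 11 arrays, 0.949 over 12), Tspan18 (0.970 and 0.958) and Tmem98 (0.969 and 0.970). Hk2 came closest to Ppp2r2a (0.965 and 0.754), Nup98 (0.948 and 0.679) and Sema7a (0.944 and 0.938). For Slc2a1 they were Itga1 (0.926 and 0.920), Cemip (0.919 and 0.751) and Pwp2 (0.912 and 0.913), and for Vegfa Add3 (0.926 and 0.662), Clic5 (0.925 and 0.916) and Cyp2s1 (0.923 and 0.919). Egln3 had Tnip1 (0.911 and 0.875), Eea1 (0.897 and 0.616) and Samsn1 (0.891 and 0.586), and the second Hk1 probe set Nucb1 (0.930 and 0.940). The brighter Hk1 probe set had Marchf7 (0.866 and 0.184), and Pdk1 had Fmo2 (0.728 and 0.111), coefficients that rest on leaving out septic wildtype replicate 2.

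In a subset chosen after the data were seen, replicates 1 to 3 of each group without septic wildtype replicate 2, limma called 4 members for septic TLR-deficient against septic wildtype, where 5.03% of all genes were called. They were Hif1a at a log2 difference of 1.41 (adjusted p = 0.014 in limma), Pfkfb3 at 1.86 (adjusted p = 0.00919 in limma), Slc16a3 at 1.23 (adjusted p = 0.0153 in limma) and, in the other direction, Vegfa at -0.98 (adjusted p = 0.0363 in limma). The subset leaves out M8, M12 and M16, which the title sets place with arrays of another label, so it favours calls and the values are a description of those arrays. On the septic wildtype side only replicates 1 and 3 remain. Because the arrays were picked by their values, the adjusted p-values are not evidence of a difference between the conditions. With septic wildtype replicate 2 kept, the same subset called 0 members. In the other 2 comparisons it called 0 members with or without that array.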

How the data were processed

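RNA of 12 mouse spleens was read on Affymetrix whole-transcript arrays. Per the submitters' processing notes, the authors made the deposited log2 values with RMA in Affymetrix Expression Console, versions not given in the sources used here. RMA usually includes a step that makes the arrays' distributions alike, but those of the deposited values still differed, with an SD of 1.52 on septic wildtype replicate 2 and 2.11 to 2.24 elsewhere. The protocol opens with a sentence on mutants of another gene, which was not used. The values ran from 1.33 to 13.79 over 35557 probe sets. In the platform annotation 21789 name 1 gene, 1621 several and 12147 none, and 21698 of the first were matched to RefSeq by gene identifier. The probe set with the highest mean stood for each of 19938 genes, with no filter on low values.

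Groups follow the labels. One model with a mean per group over all 12 arrays was fitted with limma 3.58.1 in R 4.3.3, two-sided, with Benjamini-Hochberg adjustment over all genes and a threshold of 0.05. A difference is the first group's mean log2 value minus the second's, and SE its standard error. The procedure was tested on simulated data. Named genes were all members, the 3 genes of widest range in each pathway list, the 3 genes most correlated with each member, and the 2 brightest markers of each cell type list, shown where they bear on a member. Members, lists, title sets and rules were chosen with earlier results of these data known. Alternatives were a further quantile normalization, median centring, a filter at the 25th percentile, the mean of probe sets, only the groups compared, trended robust variances, array weights, a replicate block and leaving out each array. Replicates 1 to 3, the same without septic wildtype replicate 2, and the second Hk1 probe set were added after seeing the data, as were list medians without each array in turn. No array was left out unless stated. Promoter windows came from RefSeq on GRCm38.p6. Figures were drawn with matplotlib 3.10.9. The number of arrays limits the precision.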

Additional observations from a re-analysis of the deposited data

Results flagged for a closer look

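On the brighter Hk1 probe set, septic wildtype replicate 3 lay apart from its group, at a log2 value of 11.94 against 12.28 to 12.35 on the other 3 arrays. The gap was 0.84 of the group's range, above Dixon's 95% critical value for 4 arrays. It was 1 of 33 groups examined, and chance gives such a gap in about 1 in 20 groups. On the second Hk1 probe set the same array, at 7.99, was the highest of its group.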

How the results depend on the processing

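The count of genes called stayed at 0 in each comparison under every alternative, except array weights and both subsets of replicates. With array weights limma called 1 gene between septic and untreated wildtype, Smoc2 (-0.92, adjusted p = 0.0487). Replicates 1 to 3 alone gave 9, 141 and 33 genes for septic against untreated wildtype, septic TLR-deficient against septic wildtype, and septic TLR-deficient against untreated, and 19, 1002 and 675 without septic wildtype replicate 2. Deviations from the labelled group means correlated at -0.535 to 0.144 between same-number arrays, 3 of 12 pairs above 0.1. Between arrays of other numbers they correlated at -0.404 to 0.38, 14 of 36 pairs above 0.1. The deviations include those of arrays unlike their group, so this check cannot decide whether the numbers pair the arrays. The replicate block gave 0 genes in each comparison, with 1338, 1006 and 308 at an unadjusted p under 0.05.

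Of 30 member differences, 13 kept their direction and side of the threshold in all alternatives, 13 reversed in at least 1, and 4 passed in the second subset. For septic minus untreated wildtype the sign turned for Pfkfb4 with median centring (-0.06) and replicates 1 to 3 (-0.04), Egln3 with replicates 1 to 3 (0.01), Pdk1 with array weights (0.04) and in the second subset (0.18), and Hk1 with the mean of probe sets (-0.07) and the second probe set (-0.29). For septic TLR-deficient minus septic wildtype it turned for Pdk1 with array weights (-0.08) and in the second subset (-0.20), and for Hk1 with median centring (0.00) and the second probe set (0.08). For septic TLR-deficient minus untreated it turned with quantile normalization for Pdk1 (0.03) and Egln3 (-0.00), and for Hk1 with the mean of probe sets (-0.09) and the second probe set (-0.22).

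Sizes also moved by over 1.5 times without a turn of sign. For septic minus untreated wildtype, array weights gave -0.66 for Hif1a, -0.83 for Pfkfb3, -0.39 for Slc2a1, 0.25 for Hk1 and 0.11 for Pfkfb4, and quantile normalization gave -0.53 for Hk2, -0.37 for Slc16a3, -0.47 for Egln3, -0.04 for Pdk1, 0.56 for Vegfa and 0.17 for Pfkfb4, and median centring gave -0.32 for Egln3, 0.03 for Hk1 and 0.12 for Vegfa. For septic TLR-deficient minus septic wildtype, array weights gave 0.31 for Slc2a1 and -0.62 for Vegfa, and quantile normalization gave 0.21 for Hk2, 0.51 for Slc16a3, 0.47 for Egln3, 0.07 for Pdk1 and -0.67 for Vegfa, and median centring gave -0.15 for Pfkfb4. Over the 3 comparisons such moves numbered 13 of 30 with quantile normalization, 14 with array weights, 5 with median centring and 1 with the mean of probe sets. They numbered 13 with replicates 1 to 3 only, and 22, the most, when septic wildtype replicate 2 was left out as well.

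Leaving out 1 array at a time moved septic minus untreated wildtype from -0.04 to 0.16 for Pfkfb4 and from -0.51 to 0.08 for Pdk1, and septic TLR-deficient minus septic wildtype from -0.12 to 0.47 for Pdk1. Septic TLR-deficient minus untreated ran from -0.03 to 0.65 for Hif1a, -0.02 to 0.73 for Pfkfb3, -0.15 to 0.42 for Slc16a3, -0.09 to 0.02 for Pdk1, -0.15 to 0.19 for Egln3, -0.42 to 0.03 for Vegfa and -0.02 to 0.19 for Hk1. The causes were not tested.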
